A study of Homo sapiens with 12 samples.

Results

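The genes described here encode the proteins of the cytosolic ribosome. They were taken by symbol: RPL or RPS followed by a number and at most 1 of the suffixes A, X, L and L1, with RPLP0, RPLP1, RPLP2 and RPSA added and RPS27L and pseudogenes left out. This gave 83 genes of the 19504 named rows, 52 of the large and 31 of the small subunit. The study set 2 human acute myeloid leukaemia cell lines side by side, each given AC220 (quizartinib), an inhibitor of the receptor tyrosine kinase FLT3, at 5 nM or its solvent DMSO for 24 h, with 3 libraries of total RNA in each of the 4 groups. MV4-11 grows on an internal tandem duplication of FLT3, and OCI-AML3 carries no such duplication and has a mutated NPM1; each is a single established line, so a difference between them is a difference between 2 lines. The groups are MV4-11 with AC220, MV4-11 with DMSO, OCI-AML3 with AC220 and OCI-AML3 with DMSO. Whether the replicates are separate cultures is not stated in the labels, and p-values then cover only the spread among the 3 libraries of a group, which may be technical.

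Every cytosolic ribosome is built from a large and a small subunit. The small subunit reads the mRNA and the large subunit joins the amino acids, and each protein is needed in about equal number. As background, most of the mRNAs begin with a C followed by a run of pyrimidines, the 5′ terminal oligopyrimidine (TOP) motif, through which the kinase complex mTORC1 and the protein LARP1 control their translation and stability. Their transcription and the assembly of ribosomes in the nucleolus are promoted by MYC. Inherited loss of 1 copy of several of these genes causes Diamond-Blackfan anaemia, and acquired loss of RPS14 occurs in myeloid disease with a deletion of chromosome arm 5q. A few genes, here called close paralogs, encode near relatives of a standard protein, some of which can take its place: RPL22L1, RPL26L1, RPL39L, RPL7L1, RPL3L and RPL10L.

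Libraries were made with a 3′ end kit, so that a transcript gives about 1 countable end whatever its length. Library totals ran from 11419454 to 13328968 counts in MV4-11 with AC220, from 15041493 to 16918761 in MV4-11 with DMSO, from 10877198 to 14458640 in OCI-AML3 with AC220 and from 13013381 to 13455082 in OCI-AML3 with DMSO. Levels are given as CPM, counts relative to the library total, scaled by TMM, and 3 counts amount to 0.177 to 0.276 unscaled CPM. In MV4-11, replicate 1 with AC220 stood furthest from its group, with a chi-square per degree of freedom of 9.56 and 10.6 against the other libraries, where no other pair of replicates exceeded 8.65. Of 10 myeloid markers, 10 had counts in MV4-11 and 9 in OCI-AML3; their summed level was 668 to 695 CPM in MV4-11 with AC220, against 384 to 409 CPM in MV4-11 with DMSO, and 613 to 673 CPM in OCI-AML3 with AC220, against 588 to 594 CPM in OCI-AML3 with DMSO. The summed level of 6 erythroid markers stayed at or below 1.72 CPM in all 12 libraries. In MV4-11, 8 lymphoid markers summed to 5.24 to 6.90 CPM with AC220, against 1.74 to 2.96 CPM with DMSO, with 2 and 1 of them at 0, and 8 epithelial and stromal markers to 13.6 to 21.2 CPM with AC220, against 11.1 to 11.4 CPM with DMSO, with 3 and 4 at 0. In OCI-AML3 the lymphoid sum was at or below 0.932 CPM, and the epithelial and stromal sum was 5.59 to 8.77 CPM with AC220, against 3.65 to 5.71 CPM with DMSO. The part of these marker shifts in the results below was not tested. In bulk RNA, fewer cells of a type and less RNA per cell cannot be told apart, and all values are relative to the other transcripts of the same library. Ribosomal protein genes have many processed pseudogenes, and how reads with several positions were counted is not given in the sources used here, so the level of single members is uncertain to that extent. RPL17, RPL36A and RPS10 also share a readthrough row, and its effect on their own levels was not tested.

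The start of the transcript is shown for some of the members with the largest rises in MV4-11, because the pyrimidine run is the feature these genes are known for. RPL22L1 and RPL26L1 are shown with their standard partners RPL22 and RPL26, and RPL7L1 without RPL7. RPL29, at 0.68 log2, rose more than RPLP1, at 0.67, and is not shown, nor is RPL39L. The sequences are from RefSeq on GRCh38.p14, 15 bases before and 15 from the annotated start, matched by symbol. Where a gene had several listed starts, one with C and 4 or more pyrimidines was shown if there was any. Capitals mark the unbroken run of C and T that begins at the start base.
RPS27 (chr1:153990747-153990776, plus strand): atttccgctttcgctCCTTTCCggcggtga
RPS9 (chr19:54200843-54200872, plus strand): gtggcgcttccgcgcCTCTTTCTCagtgac
RPL39 (chrX:119791616-119791645, minus strand): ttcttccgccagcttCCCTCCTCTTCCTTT
RPL27A (chr11:8682777-8682806, plus strand): ttggcgaaggccttcCTTTTTCgtctgggc
RPLP1 (chr15:69452803-69452832, plus strand): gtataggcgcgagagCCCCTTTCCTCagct
RPL22L1 (chr3:170870181-170870210, minus strand): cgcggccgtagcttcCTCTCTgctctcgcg
RPL22 (chr1:6199581-6199610, minus strand): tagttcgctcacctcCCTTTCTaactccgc
RPL26L1 (chr5:172958714-172958743, plus strand): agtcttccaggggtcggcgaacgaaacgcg
RPL26 (chr17:8383179-8383208, minus strand): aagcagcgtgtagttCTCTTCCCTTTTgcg
RPL7L1 (chr6:42879601-42879630, plus strand): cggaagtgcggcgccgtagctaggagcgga
At the starts shown, the standard genes and RPL22L1 began with C and a pyrimidine run. The run had 7 bases in RPL22, 12 in RPL26 and 6 in RPL22L1. The choice of start favoured such a run. RPL26L1 and RPL7L1 began with G and had no run. Of the 83 members, 66 had an entry and 47 of these (71.2%) had at a listed start a C followed by 4 or more pyrimidines, on the strand of the gene, against 5.14% of the 27305 genes with an entry. Counted by start, 47 of 82 listed starts of members (57.3%) matched, against 4.07% of all 35116 listed starts. A match is a description of these letters at an annotated start, and other starts may be in use.

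Ribosomal protein mRNA made up more of the library in MV4-11 cells with AC220 than with DMSO. All members together held 26.8%, 27.3% and 27.5% of the counts in MV4-11 with AC220, against 21.9%, 21.9% and 21.5% in MV4-11 with DMSO. The groups did not overlap, and the means were 27.2% ± 0.362 with AC220 and 21.8% ± 0.223 with DMSO (SD, n = 3 each). In OCI-AML3 the share was 21.0%, 21.7% and 20.4% with AC220, against 22.1%, 22.6% and 21.0% with DMSO, and these groups overlapped. The exact two-sided permutation test gave p = 0.1 for MV4-11, which is the smallest that 3 libraries against 3 allow, and p = 0.3 for OCI-AML3; adjusted over the 14 shares compared between AC220 and DMSO, these are 0.175 and 0.323.

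Both subunits took part in MV4-11. Large subunit genes held 14.5% ± 0.0722 of the counts with AC220 and 11.8% ± 0.106 with DMSO, and small subunit genes held 12.7% ± 0.29 with AC220 and 9.94% ± 0.132 with DMSO (SD, n = 3 each). The ratio of large to small subunit counts was 1.17, 1.15 and 1.13 in MV4-11 with AC220, against 1.18, 1.20 and 1.19 with DMSO. In OCI-AML3 it was 1.24, 1.26 and 1.29 with AC220, against 1.23, 1.23 and 1.23 with DMSO. The ratio was thus lower with AC220 than in every DMSO library in MV4-11 and higher in OCI-AML3; it was not tested. Of other abundant transcripts, those encoded by mitochondrial DNA held 7.67% ± 0.518 of the counts in MV4-11 with AC220 and 8.14% ± 0.328 with DMSO (SD, n = 3 each).

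**Figure D1:**
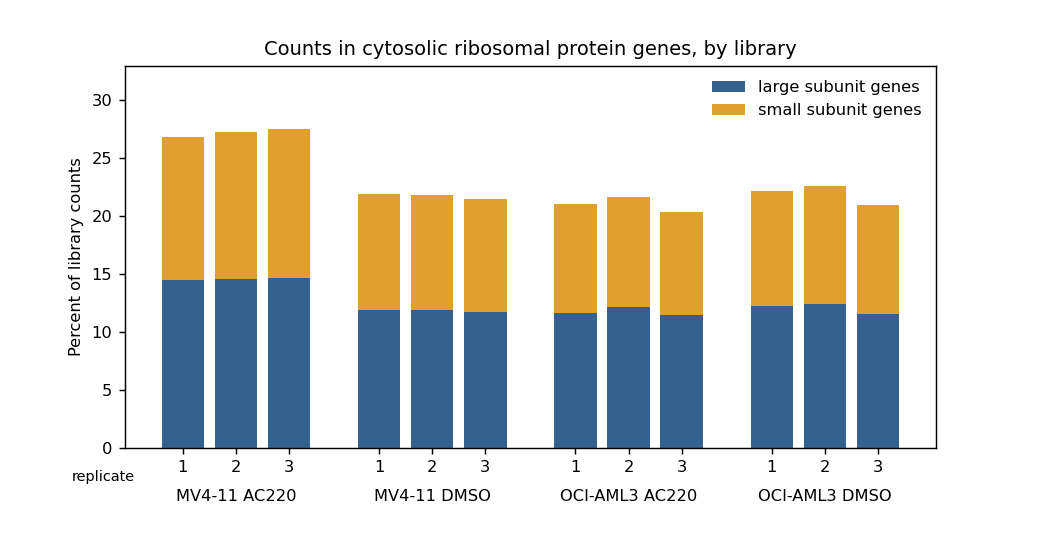
Percent of each library's counts (y axis) in large (blue, lower) and small (yellow, upper) subunit genes, with 1 bar for each of the 12 libraries. The 3 bars of MV4-11 with AC220 reach 26.8% to 27.5%, and the other 9 lie between 20.4% and 22.6%.

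Of the 83 members, 81 passed the filter on low counts. RPL10L had no counts, and RPL3L, a form known from striated muscle, stayed at or below 1.21 CPM in every library. With AC220 in MV4-11, 71 of the 81 rose and 4 fell (edgeR's quasi-likelihood test, Benjamini-Hochberg adjusted p under 0.05 over 12392 genes). Over all genes tested 31.5% rose, 26.9% fell and 58.3% changed in either direction. The median log2 fold change was 0.41 over members and 0.07 over all genes, and the middle part of the members (lower to upper quartile) lay between 0.27 and 0.51. Every AC220 library lay above every DMSO library for 72 members and below for 4, against 33.5% above and 28.9% below over all genes tested; of the 75 members called, only RPL4 had overlapping libraries. Small subunit genes rose in 30 of 31, with a median of 0.45, and large subunit genes rose in 41 of 50, with a median of 0.37. None of the 77 members other than the close paralogs fell in edgeR, DESeq2 or limma-voom, and the same count of 0 held at an unadjusted p under 0.05 in each of these tools. The close paralogs were set apart after seeing the data and hold all 4 that fell. This 0 in edgeR therefore follows from the choice and is no separate result. In the authors' deposited log2 values, 27 of the 77 were higher and 5 lower (limma).

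The split of 71 members higher and 4 lower depends on the scaling between libraries. Scaled by library totals alone, 62 members rose and 5 fell, with a median of 0.30, against -0.02 over all genes. The shares of all genes called with this scaling are not given here. In the authors' deposited log2 values, 27 of the 81 were higher and 8 lower (limma), against 30.9% higher, 27.5% lower and 58.4% either over all genes tested there, so that the higher calls lie near the share over all genes. The median log2 fold change there was 0.12 over members and 0.04 over all genes tested. All 27 were also higher in the counts, while RPL35A and RPS6 were higher in the counts and lower in the deposited values. In those deposited values every library has the same highest value, 14.06 log2, and 63 of the 100 genes with the highest mean CPM are members; the part of this in the lower count was not tested.

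The largest rises were of similar size across both subunits. RPS27, a small subunit protein with a zinc finger, had 2583, 2581 and 2533 CPM in MV4-11 with AC220, against 1514, 1537 and 1581 CPM with DMSO. Every AC220 library lay above every DMSO library, and the log2 fold change was 0.73 ± 0.06 (SE; edgeR adjusted p = 2.34e-11). RPS9, which lies near the site where the small subunit decodes mRNA, had 1449, 1638 and 1641 CPM with AC220, against 994, 979 and 884 CPM with DMSO, again with no overlap (0.73 ± 0.06 log2, edgeR adjusted p = 4.62e-11). RPL39, a very short protein of the tunnel through which the new chain leaves, had 3416, 3621 and 3720 CPM with AC220, against 2148, 2212 and 2154 CPM with DMSO. Its groups did not overlap either, and it rose by 0.72 ± 0.07 log2 (edgeR adjusted p = 1.08e-10). RPL27A and RPL29 were also among the largest, with log2 fold changes of 0.72 and 0.68 and no overlap of libraries. In the deposited values all 5 were still higher, RPS9 by 0.65, RPL29 by 0.62, RPS27 by 0.47, RPL39 by 0.38 and RPL27A by 0.36 log2.

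The stalk of the large subunit recruits the elongation factors, and its 3 proteins all rose. RPLP1 had 6435, 6907 and 6739 CPM in MV4-11 with AC220, against 4283, 4241 and 4112 CPM with DMSO, a difference of 0.67 ± 0.06 log2 (edgeR adjusted p = 5.36e-11). The libraries of each group lay close together and far from the other group. RPLP2 and RPLP0 rose by 0.46 ± 0.07 and 0.43 ± 0.06 log2 (edgeR adjusted p = 3.6e-06 and 4.64e-07). RPLP1 was also higher in the deposited values, at 0.36 log2, but RPLP2 and RPLP0 were there at 0.12 and -0.0099 log2 and not called.

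RPL5 and RPL11 form a particle with the smallest ribosomal RNA and, when free of the ribosome, bind MDM2 and so stabilise p53. Only RPL11 passed the test, and in the deposited values it was at 0.083 log2 and not called; the difference between the 2 was not tested. RPL11 had 2563, 2797 and 2672 CPM in MV4-11 with AC220, against 2108, 2032 and 2006 CPM with DMSO, and rose by 0.39 ± 0.06 log2 (edgeR adjusted p = 3.26e-06). RPL5 had 3111, 3257 and 3295 CPM with AC220, against 3053, 3071 and 3033 CPM with DMSO. Its groups did not overlap, but the log2 fold change was 0.08 ± 0.06 and missed the threshold (edgeR adjusted p = 0.275).

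Among genes mutated in Diamond-Blackfan anaemia, RPS19, the one most often affected, had 7113, 8245 and 8599 CPM in MV4-11 with AC220, against 5498, 5469 and 5409 CPM with DMSO (0.55 ± 0.07 log2, edgeR adjusted p = 1.12e-07). RPS24 and RPS26 rose by 0.50 and 0.35 log2, and RPS14, the gene of the 5q deletion, by 0.59 log2. RPS26 was also higher in the deposited values, at 0.31 log2, but RPS19, RPS24 and RPS14 were there at 0.085, 0.12 and 0.14 log2 and not called. RPL35A rose by 0.17 ± 0.06 log2 (edgeR adjusted p = 0.0164). Scaled by library totals it fell short of the threshold, at 0.07 log2, and the call was lost without replicate 3 with AC220 or replicate 2 with DMSO. It was called lower in the deposited values, at -0.17 log2.

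Of members with work outside the ribosome, RPSA, also known as a laminin receptor, rose by 0.32 log2, RPL13A, part of a complex that silences inflammatory mRNAs, by 0.41 log2, and RPS3, which has a nuclease activity on damaged DNA, by 0.59 log2. They were at 0.19, 0.27 and 0.19 log2 in the deposited values, where RPSA was not called. RPS6, the substrate of the S6 kinases, had 4023, 4202 and 4036 CPM in MV4-11 with AC220, against 3565, 3515 and 3513 CPM with DMSO. The groups did not overlap, with a log2 fold change of 0.21 ± 0.06 (edgeR adjusted p = 0.00328) that missed the threshold with library totals alone, at 0.11, and turned to a called -0.17 in the deposited values. RPS27A, made as a fusion with ubiquitin, had 6465, 7468 and 7621 CPM with AC220, against 6381, 5890 and 5692 CPM with DMSO; replicate 1 with AC220 lay just above the highest DMSO library, the fold change was 0.26 ± 0.09 log2 (edgeR adjusted p = 0.0122), and the call was lost in the deposited values (-0.14 log2) and without replicate 2 or 3 with AC220 or replicate 3 with DMSO.

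The 6 members that passed neither way in MV4-11 were RPL5, RPL6, RPL10A, RPL17, RPL23 and RPS7. RPL23, which binds MDM2 like RPL5, had 2056, 1847 and 1854 CPM with AC220, against 1654, 1794 and 1878 CPM with DMSO, and the groups overlapped (0.11 ± 0.07 log2, edgeR adjusted p = 0.14). RPL10A had 3009, 3060 and 2973 CPM with AC220, against 2812, 2682 and 2658 CPM with DMSO, with no overlap (0.15 ± 0.07 log2, edgeR adjusted p = 0.0532). RPL17 had 1483, 1225 and 1152 CPM with AC220, against 1311, 1343 and 1423 CPM with DMSO, so that replicate 1 with AC220 lay above and the other AC220 libraries below all DMSO libraries. RPL6, RPL5 and RPL10A were called lower in the deposited values, at -0.34, -0.28 and -0.26 log2.

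**Figure D2:**
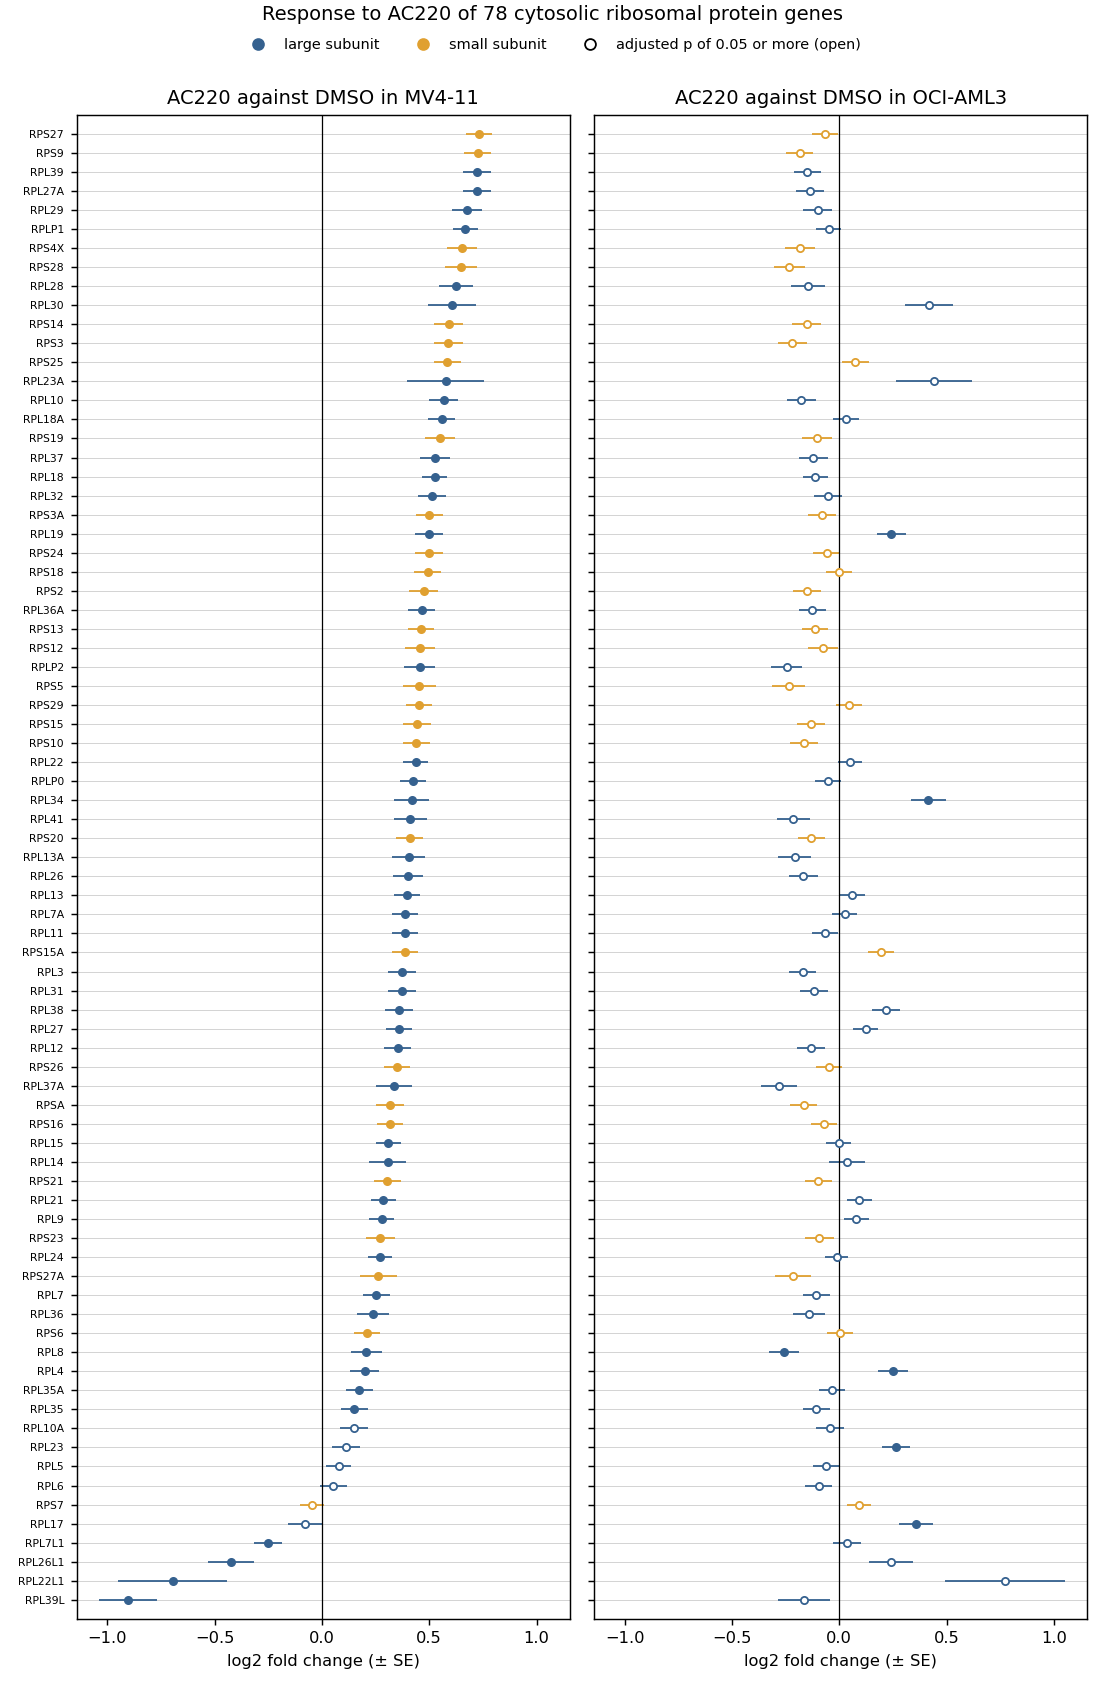
Log2 fold change of AC220 against DMSO (x axis, ± SE) of 78 of the 81 members tested (rows, in the order of MV4-11), for MV4-11 (left) and OCI-AML3 (right); blue is large and yellow small subunit, and open circles have an adjusted p of 0.05 or more (edgeR). In MV4-11 nearly all rows lie right of 0 and the 4 close paralogs lie at the bottom; in OCI-AML3 most rows lie within 0.3 of 0 and 72 are open.

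The 4 members that fell in MV4-11 were the 4 close paralogs that passed the filter, while their standard partners RPL39, RPL22, RPL26 and RPL7 rose. RPL39 and RPL22 were also higher in the deposited values, and RPL26 and RPL7 were there at 0.018 and -0.14 log2 and not called. RPL39L, a form of RPL39 known from the male germ line and from tumours, had 8.66, 6.89 and 9.17 CPM in MV4-11 with AC220, against 16.2, 14.9 and 15.3 CPM with DMSO. The groups lay far apart, and the fall was 0.90 log2 (a log2 fold change of -0.90 ± 0.13, edgeR adjusted p = 1.19e-06). RPL26L1 had 24.7, 22.8 and 20.4 CPM with AC220, against 32.2, 26.7 and 32.3 CPM with DMSO (-0.42 ± 0.11 log2, edgeR adjusted p = 0.00115). RPL7L1, whose protein is found in nucleolar precursors of the large subunit, had 192, 199 and 212 CPM with AC220, against 240.1, 233 and 244 CPM with DMSO (-0.25 ± 0.06 log2, edgeR adjusted p = 0.00156). RPL7L1 was at -0.13 log2 in the deposited values and not called.

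RPL22L1, whose mRNA is known in mouse to be held down by RPL22 protein, had 144, 91.6 and 69.5 CPM in MV4-11 with AC220, against 149, 173 and 173 CPM with DMSO. The AC220 libraries were spread widely, with replicate 1 just below the lowest DMSO library. The log2 fold change was -0.69 ± 0.25 (edgeR adjusted p = 0.0437). Without replicate 1 with AC220 it was -1.04 (adjusted p = 0.00127), and without 9 of the other 11 libraries in turn it missed the threshold, up to an adjusted p of 0.123 in edgeR. In OCI-AML3 it had 45.1, 57.3 and 62.4 CPM with AC220, against 26.8, 30.5 and 39.4 CPM with DMSO. These groups did not overlap but missed the threshold (0.77 ± 0.28 log2, edgeR adjusted p = 0.163).

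As a share of a pair, RPL22L1 made up 6.16% ± 2.28 of RPL22L1 and RPL22 counts in MV4-11 with AC220 and 12.6% ± 0.81 with DMSO, and 4.14% ± 0.531 in OCI-AML3 with AC220 and 2.56% ± 0.484 with DMSO (SD, n = 3 each). RPL7L1 made up 4.95% ± 0.113 of its pair in MV4-11 with AC220 and 6.88% ± 0.309 with DMSO. RPL26L1 and RPL39L stayed under 1% of their pairs in every library. RPL39L took 0.229% ± 0.0345 in MV4-11 with AC220 and 0.707% ± 0.0397 with DMSO. In MV4-11 no pair overlapped between the groups, and each reached p = 0.1 in the exact permutation test, the smallest the design allows, or 0.175 adjusted over the same 14 shares.

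**Figure D3:**
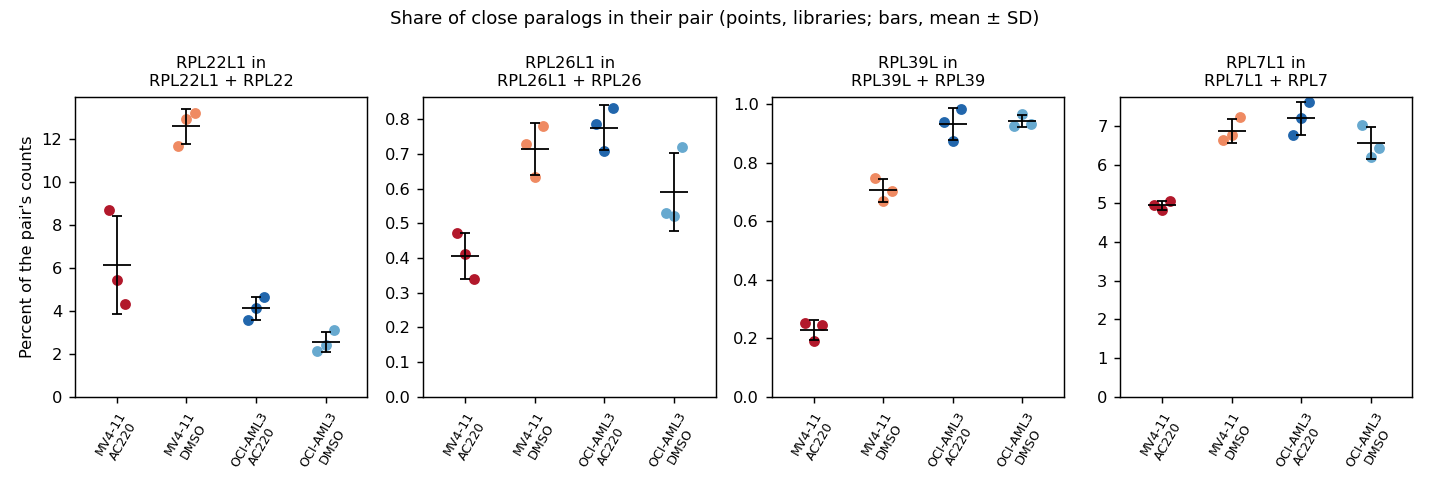
Percent of the counts of a pair that fell on the close paralog (y axis, from 0), by group (x axis), for 4 pairs. Points are libraries and bars the mean ± SD of 3; in MV4-11 the AC220 points lie below the DMSO points in all 4 pairs, from 6.16% against 12.6% for RPL22L1 to 0.229% against 0.707% for RPL39L (means).

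To see which members moved relative to the others, libraries were scaled to the summed counts of all members. Against this pool, 15 members were higher and 25 lower with AC220 in MV4-11 (edgeR); over all genes tested 13.2% were higher and 48.7% lower. Scaled instead to the median ratio over members, the counts were 20 higher and 19 lower, and the shares over all genes are not given here. This scaling shifts every member by nearly the same amount. The order of gains and losses therefore follows that of the fit above and is no separate observation. The largest gains were RPS27 (0.31 ± 0.05 log2), RPS9 (0.30 ± 0.05) and RPL39 (0.30 ± 0.05), and RPL27A, RPL29 and RPLP1 were also among the largest. The largest losses were RPL39L (-1.32 ± 0.13 log2), RPL22L1 (-1.11 ± 0.29) and RPL26L1 (-0.84 ± 0.13), and of the standard genes RPL17, RPS7, RPL6, RPL5, RPL23 and RPL10A, from -0.50 to -0.27 log2. Small subunit genes were higher in 8 and lower in 7 of 31, and large subunit genes higher in 7 and lower in 18 of 50, of which 4 were the close paralogs.

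Members were also grouped by whether any listed start had C and 4 or more pyrimidines. Of the 47 with such a start, 46 rose and 1, RPL22L1, fell in MV4-11, with a median log2 fold change of 0.42. Of 18 tested members with another start, 12 rose and 2, the close paralogs RPL26L1 and RPL7L1, fell, with a median of 0.33. Of 16 tested members with no entry, 13 rose and 1 fell, with a median of 0.42. Over all genes tested 31.5% rose and 26.9% fell. The difference between these groups was not tested, and genes outside the members with such a start were not compared. RPL22L1 fell with a pyrimidine run at its start, and RPL26L1 and RPL7L1 fell without one.

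In OCI-AML3, few members were called with AC220. Of the 81, 5 rose and 2 fell (edgeR); over all genes tested 3.44% rose, 0.508% fell and 3.95% changed in either direction. The median log2 fold change was -0.08 over members and -0.002 over all genes, and at an unadjusted p under 0.05 there were 12 higher and 22 lower. The share of all genes at that unadjusted threshold is not given here, so these counts are not read as a result about the members. RPL34, RPL17, RPL23, RPL4 and RPL19 rose by 0.24 to 0.42 log2, and RPL8 fell by 0.26 log2. RPL34 had 2194, 2624 and 2668 CPM with AC220, against 1802, 1862 and 1950 CPM with DMSO, and the groups did not overlap (0.42 ± 0.08 log2, edgeR adjusted p = 0.00898).

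These OCI-AML3 calls rest on single libraries and on the tool. None of the 81 was called without replicate 3 with AC220, without replicate 1 with DMSO or without replicate 2 with DMSO, where an unadjusted p under 0.05 in edgeR was reached by 9 higher and 9 lower, 8 and 9, and 9 and 9. Without replicate 3 with DMSO, 6 rose and 18 fell. Leaving out MV4-11 AC220 replicate 1, 9 rose and 11 fell, and the counts were 5 and 7 without MV4-11 AC220 replicate 3, 9 and 3 without OCI-AML3 AC220 replicate 1, 3 and 0 without MV4-11 DMSO replicate 2 and 1 and 0 without OCI-AML3 AC220 replicate 2. DESeq2 called 8 higher and 11 lower, and limma-voom 9 higher and 5 lower. With median-ratio size factors the split was 4 higher and 5 lower, with library totals alone 2 and 4, and without a filter on low counts 6 and 9. Shares over all genes are not given here for these alternatives and left-out libraries. Their counts show only how far the number of calls varied. In the deposited values limma called none of the members and 0.00903% of all genes tested there, with 11 higher and 10 lower at an unadjusted p under 0.05.

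Against the pool of members, RPL23, RPL19 and RPS15A were higher with AC220 in OCI-AML3, by 0.33, 0.31 and 0.26 log2, and none was lower in edgeR, where 19 were higher and 10 lower at an unadjusted p under 0.05. Over all genes tested 0.944% were higher and 0.0161% lower. With limma-voom 9 members were higher and 4 lower. Shares over all genes are not given here for limma-voom, for the unadjusted threshold or for left-out libraries. No member was called against the pool without OCI-AML3 AC220 replicate 2 or 3, OCI-AML3 DMSO replicate 1 or 2, or MV4-11 DMSO replicate 2 or 3, and 12 were higher and 6 lower without OCI-AML3 DMSO replicate 3.

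The AC220 response itself differed between the lines in 67 of the 81 members, larger in MV4-11 in 62 and smaller in 5 (edgeR, difference of the 2 contrasts). Over all genes tested 23.0% were larger, 23.7% smaller and 46.7% either. The median difference was 0.48 log2 over members and 0.03 over all genes. All 62 were among the members that rose in MV4-11. Among the largest were RPS9 (0.91 ± 0.09 log2) and RPS28 (0.88 ± 0.10). RPL8, a protein of the peptidyl transferase region, was called in both lines with opposite sign in the counts; in the deposited values it was called in neither line (-0.046 log2 in MV4-11 and -0.22 in OCI-AML3), and the difference was 0.18 log2 (limma adjusted p = 0.189). RPL8 had 2011, 2213 and 2425 CPM in MV4-11 with AC220, against 1983, 1940 and 1835 CPM with DMSO, replicate 1 with AC220 lying just above the highest DMSO library. In OCI-AML3 it had 2105, 2141 and 1896 CPM with AC220, against 2562, 2576 and 2203 CPM with DMSO. The 5 with a smaller response in MV4-11 were RPL17 and the 4 close paralogs, of which RPL22L1 differed by -1.47 ± 0.38, RPL39L by -0.74 ± 0.18 and RPL26L1 by -0.66 ± 0.15 log2. In the deposited values 26 differences were called positive and 10 negative, against 25.9% and 23.0% over all genes tested there, with a median of 0.10.

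Other genes of the ribosome's making and use did not share one direction in MV4-11, where 31.5% of all genes tested rose and 26.9% fell. Elongation factors and other mRNAs of the TOP class rose in 17 and fell in 2 of 22, with a median log2 fold change of 0.38. EEF1G, a subunit of the factor that reloads the tRNA carrier, averaged 1220.2 ± 71.7 CPM with AC220 and 799.5 ± 24.2 CPM with DMSO, and EIF3F 470.4 ± 28.6 CPM with AC220 and 308 ± 9.41 CPM with DMSO (SD, n = 3 each). The 2 that fell were EEF1E1, a scaffold of tRNA synthetases, with 17.1 ± 2.13 CPM with AC220 and 60.9 ± 2.44 CPM with DMSO, and NPM1, a nucleolar chaperone, with 1574 ± 67.9 CPM with AC220 and 1857 ± 38.6 CPM with DMSO.

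Ribosome assembly factors went the other way, with 38 of 49 lower and 2 higher and a median of -0.61 log2. TCOF1, which supports transcription of ribosomal RNA, averaged 51.4 ± 3.16 CPM in MV4-11 with AC220 and 132 ± 6.21 CPM with DMSO, and the RNA helicase DDX21 334 ± 13.4 CPM with AC220 and 754 ± 18.2 CPM with DMSO (SD, n = 3 each). The 2 that rose were WDR74, with 627 ± 40.02 CPM with AC220 and 182 ± 10.5 CPM with DMSO, and UTP15. Mitochondrial ribosomal proteins fell in 48 and rose in 6 of 76 (median -0.31 log2), and their share of counts was 0.423% ± 0.0108 with AC220 and 0.56% ± 0.00469 with DMSO. Initiation factors fell in 16 and rose in 3 of 29 (median -0.26 log2), and subunits and factors of RNA polymerases I and III fell in 17 and rose in 6 of 35 (median -0.20 log2).

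Genes that control the translation of ribosomal protein mRNA fell in 9 and rose in 3 of 19 (median -0.18 log2). Among them EIF4EBP1, a repressor of cap binding acted on by mTORC1, averaged 31.4 ± 2.65 CPM in MV4-11 with AC220 and 106 ± 5.84 CPM with DMSO (SD, n = 3 each), and PDCD4, an inhibitor of the helicase EIF4A, was higher by 0.58 log2. Chaperones and importers of ribosomal proteins fell in 7 and rose in 1 of 14 (median -0.28 log2), the 1 being NAP1L1. The mitochondrially encoded transcripts rose in 5 and fell in 3 of 13, both near the shares over all genes. In OCI-AML3 the medians of all these lists lay between -0.06 and 0.07 log2; calls ran from 0 for the chaperones and importers to 8 for the mitochondrial ribosomal proteins, of which 7 were higher.

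**Figure D4:**
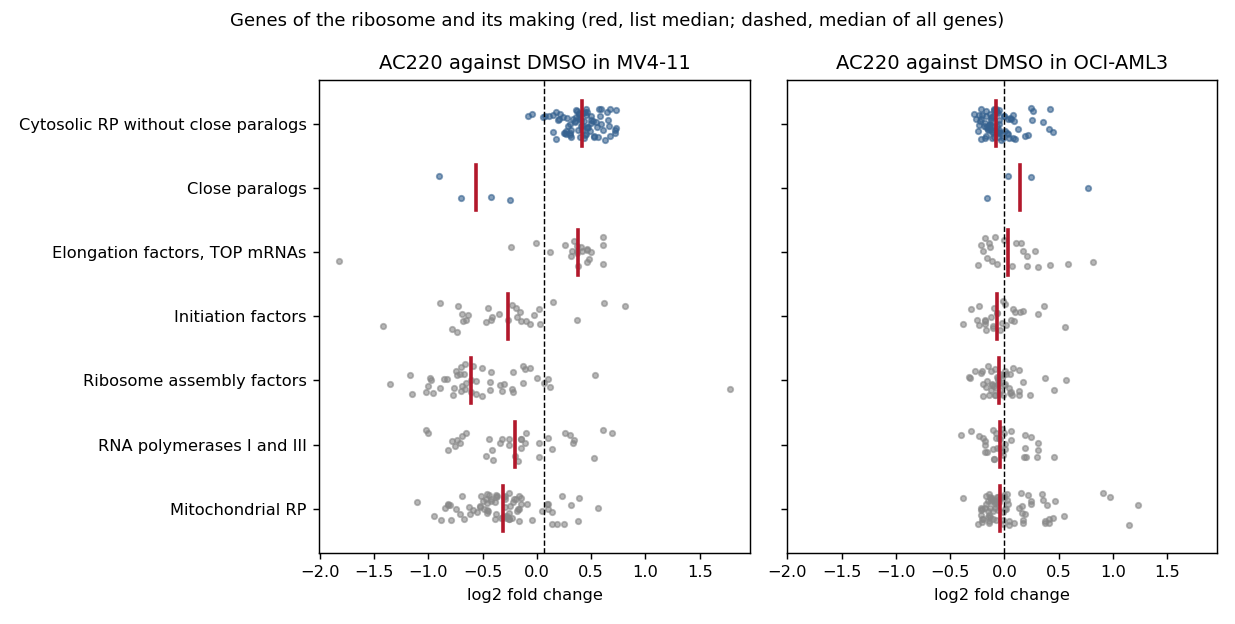
Log2 fold change of AC220 against DMSO (x axis) of single genes (points, spread vertically for sight) by list (rows), for MV4-11 (left) and OCI-AML3 (right); red bars are list medians and the dashed line the median of all genes tested. In MV4-11 the medians run from 0.41 for the standard members to -0.61 for the assembly factors, and in OCI-AML3 all lists but the 4 close paralogs centre near 0.

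Members also differed between the lines before any drug, about as often as all genes tested and without a shared direction. Under DMSO, 21 members were higher and 31 lower in MV4-11 than in OCI-AML3 (edgeR), against 32.1% higher, 33.4% lower and 65.5% either over all genes tested, with a median difference of -0.08 log2 over members and 0.005 over all genes. The deposited values gave 21 higher and 26 lower, against 32.2% higher, 31.8% lower and 64.0% either over all genes tested there. The summed share was 21.8% ± 0.223 in MV4-11 and 21.9% ± 0.821 in OCI-AML3 (SD, n = 3 each; exact permutation p = 0.8). RPL37, a zinc-binding protein of the large subunit, had 2632, 2615 and 2439 CPM in MV4-11 with DMSO, against 6819, 6990.0 and 5796 CPM in OCI-AML3 with DMSO (-1.35 ± 0.07 log2, edgeR adjusted p = 2.15e-16). It stayed lower in MV4-11 under AC220, by 0.70 log2 (a difference of -0.70, and -1.08 in the deposited values). RPS20, RPL38, RPL36A, RPS27 and RPL39L were the next lowest, from -0.57 to -0.44 log2.

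RPL22L1 was the member furthest above OCI-AML3, with 149, 173 and 173 CPM in MV4-11 with DMSO, against 26.8, 30.5 and 39.4 CPM in OCI-AML3 with DMSO. Its groups lay far apart (2.35 ± 0.28 log2, edgeR adjusted p = 5.92e-05), while its partner RPL22 had 1128, 1162 and 1138 CPM in MV4-11 with DMSO, against 1216, 1232 and 1233 CPM in OCI-AML3 with DMSO, which did not overlap but missed the threshold (-0.10 ± 0.06 log2, adjusted p = 0.111). RPL21 (0.89 log2), RPS29 (0.83), RPL11 (0.70), RPL28 (0.56) and RPS19 (0.56) were the next highest, none with overlapping libraries. RPS29, a short zinc-binding protein of the small subunit, had the highest mean level of all members over the 4 groups, 10402 CPM, in counts of transcript ends, which do not grow with transcript length. It had 16452, 15314 and 16862 CPM in MV4-11 with AC220, 11886, 11735 and 11881 CPM in MV4-11 with DMSO, 6747, 7147 and 6776 CPM in OCI-AML3 with AC220 and 6423, 6869 and 6729 CPM in OCI-AML3 with DMSO.

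Under AC220, 56 members were higher and 8 lower in MV4-11 than in OCI-AML3 (edgeR), against 36.7% higher, 39.5% lower and 76.2% either over all genes tested, with a median of 0.33 log2 over members and -0.03 over all genes. This comparison shares the AC220 libraries with the responses above. All 21 members that were higher in MV4-11 under DMSO were also higher under AC220, and 15 that were lower under DMSO were higher under AC220, among them RPS27, RPL27A, RPS14 and RPS24. Of these 15, the deposited values gave 3 as higher under AC220 (RPL27A, RPL12 and RPS4X) and 4 as lower, among them RPS24, RPL26 and RPL32, and RPS27 and RPS14 were at -0.011 and 0.048 log2 and not called. The 8 lower under AC220 were RPL37, RPL38, RPL17, RPL23, RPS7, RPL39L, RPL26L1 and RPL7L1. In the deposited values 34 were higher and 21 lower, against 38.5% and 38.1% over all genes tested there, with a median of 0.04.

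**Figure D5:**
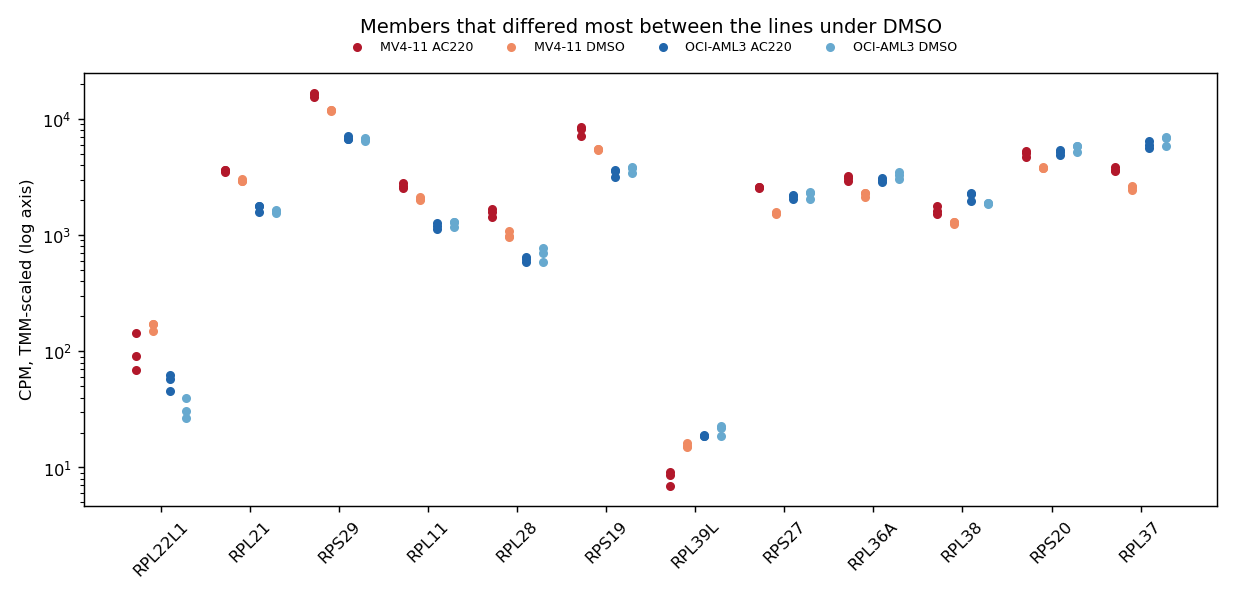
TMM-scaled CPM (y axis, log scale) of the 12 members with the largest differences between the lines under DMSO (x axis, from highest to lowest in MV4-11 relative to OCI-AML3), with 1 point per library and a colour per group. The DMSO points of the lines do not overlap for any of the 12, and RPL22L1 and RPL37 stand furthest apart.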

How the data were processed

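Both kinds of values came from the authors: a deposited table of raw counts, with a row for each symbol and a column for each of the 12 libraries, and deposited log2 values after normalisation, with 11075 genes. Per the submitters' processing notes, the tools include HISAT2 2.0.4, cutadapt 1.9.1 and featureCounts of Subread 2.0.0, on hg19, and limma 3.42.2 under R 3.6.1 is named there too; the annotation, strand setting and handling of reads with several positions are not given in the sources used here. A row without a symbol (0.00343% to 0.00503% of a library) was left out.

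Counts were filtered with filterByExpr over the 4 groups (12392 genes left), scaled by TMM and tested with edgeR 4.0.16 (R 4.3.3; quasi-likelihood F test, robust, a mean per group over all 12 libraries, 8 residual degrees of freedom); p-values were adjusted by Benjamini-Hochberg over all tested genes, with a threshold of 0.05. For tests against the pool, library size was the summed count of the members. Shares were compared by exact permutation over libraries. Alternatives used DESeq2 1.42.0, limma-voom and limma 3.58.1 on the deposited log2 values, other scalings, filters and thresholds, and each library left out. The edgeR test was also run on simulated counts with known changes in genes drawn from all those tested. It recovered 4% of 50 genes changed by 0.2 log2, 56% at 0.5, 92% at 1 and 98% at 2. Small changes can thus be missed. No pair of libraries was identical. The labels do not say what a replicate number shares, and the main test did not pair libraries by it. Any count interval covers counting error only.

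Members named singly were a list of 33 genes chosen by role, the 6 (MV4-11, lines) or 3 (OCI-AML3, difference of responses, pool) largest called changes in each direction with a mean count of at least 20 and no overlap, and, outside the members, the 2 per direction and list with the smallest adjusted p; others were named after their values were seen. A few genes that these rules pick are not reported here. The members and lists were chosen with earlier results of these data known. Sequences were matched by symbol to RefSeq starts on GRCh38.p14; coordinates of the hg19 counts were not used.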

Additional observations from a re-analysis of the deposited data

Results flagged for a closer look

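The response to AC220 differed between MV4-11 and OCI-AML3 in 67 of 81 members by edgeR's test of the difference of the 2 contrasts. Over all genes tested 46.7% differed. In the deposited values 26 members were called positive and 10 negative (limma), against 25.9% and 23.0% over all genes tested there. Singled out by the size of this difference, in log2 (MV4-11 minus OCI-AML3), were RPS9 (0.91) and RPS28 (0.88), with a larger response in MV4-11, and RPL22L1 (-1.47), RPL39L (-0.74) and RPL26L1 (-0.66), with a lower one. RPL8 (0.46) is added because it was called in both lines with opposite sign, which in OCI-AML3 rests on a call that was lost without single libraries; in the deposited values it was called in neither line (-0.046 log2 in MV4-11) and the difference was not called (0.18 log2, limma adjusted p = 0.189). The groups hold 3 libraries, too few to test single genes for a library far from the rest. Over genes together, replicate 1 of MV4-11 with AC220 stood furthest from its group, as given above. Calls with each library left out are given below.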

How the results depend on the processing

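With 3 libraries a group, small differences are limited by the spread between libraries more than by depth, and the lowest group mean of a standard member was 419 CPM (RPS26 in OCI-AML3 with AC220). In MV4-11 the number of members called with AC220 was 35 in the deposited log2 values, and the median log2 fold change was 0.30 with library totals alone, 0.38 without a filter on low counts, 0.43 with a stricter filter, 0.12 in the deposited values and 0.35 with only the MV4-11 libraries. In the deposited values the sign turned for RPL10A (-0.26), RPL35A (-0.17), RPL5 (-0.28), RPL7 (-0.14), RPLP0 (-0.0099), RPS27A (-0.14) and RPS6 (-0.17); the cause was not tested. In OCI-AML3 the number called was 15 without a filter, 19 with DESeq2, 14 with limma-voom, 0 in the deposited values (median -0.027), 11 with only the libraries compared and 1 at an adjusted p under 0.01, and against the pool 13 with limma-voom. For the difference of responses, the deposited values gave 36 calls and a median of 0.10, and library totals a median of 0.37. Between the lines, the median was -0.029 in the deposited values under DMSO and, under AC220, 0.25 with library totals, 0.041 in the deposited values and 0.37 with only the libraries compared. Leaving out 1 library at a time, calls ranged from 68 to 76 in MV4-11, 0 to 24 in OCI-AML3, 62 to 71 for the difference, 44 to 53 and 62 to 66 between the lines under DMSO and AC220, and 32 to 42 and 0 to 18 against the pool in MV4-11 and OCI-AML3. The medians ranged from 0.36 to 0.44, -0.12 to -0.042, 0.44 to 0.53, -0.10 to -0.028 and 0.30 to 0.37 in the order MV4-11, OCI-AML3, difference, lines under DMSO and lines under AC220. The differences in percent of counts ranged from 5.27 to 5.63, 2.66 to 2.77 and 2.58 to 2.87 in MV4-11 for all, large and small subunit genes, and from -1.33 to -0.54, -0.59 to -0.15 and -0.74 to -0.34 in OCI-AML3. Deviations of replicates with the same number were weakly correlated (-0.12 to 0.18 within a line), which cannot settle whether they were paired. With the replicate number as a block in edgeR, 72 members were higher and 3 lower in MV4-11, and 4 and 2 in OCI-AML3. RPL22L1 was then not called in MV4-11 (edgeR adjusted p = 0.0876). Without the 4 close paralogs, chosen after seeing the data, 71 members were higher and 0 lower in MV4-11 (edgeR, also 0 lower at an unadjusted p under 0.05). Without the 3 genes that share a readthrough row (RPL17, RPL36A and RPS10), the counts were 69 and 4.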
